A study of Mus musculus with 3 samples.

Results

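Dido1 and relatives that share domains or function with it, 9 of the 30222 gene names on the array, were read by 13 of its 39429 probes. RNA of mouse embryoid bodies was hybridised to 3 such arrays, with a genotype in each colour. The 9 genes (Dido1, Phf3, Spocd1, Spen, Rbm15, Rbm15b, Tcea1, Tcea2 and Tcea3) were found by the gene name printed for each probe in the scanner files, and every probe is given. The rule uses no measured value, but the genes were proposed with earlier results of these data known. An embryoid body is a floating cluster of stem cells left to differentiate. Those used here were at day 10, all grown without LIF, and they came either from wildtype control cells or from the Dido3deltaCT mutant, in which the C terminus of the Dido3 protein is truncated. The limits of the deletion are not given in the labels, so no Dido1 probe could be placed inside or outside the deleted sequence, and a low or high Dido1 probe cannot by itself be read as a change in the amount of transcript. Each array held 1 mutant and 1 wild type sample, so there were 3 samples of each genotype, with mutant RNA in Cy3 on replicates 1 and 3 and in Cy5 on replicate 2. The labels call the samples biological replicates and do not say whether they come from separate cell lines or clones. If they are repeat cultures of 1 line per genotype, the p-values cover only how cultures and arrays vary, and what the mutation does and what else sets the lines apart cannot be told apart.

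Dido1 encodes several proteins that share an N-terminal PHD finger, a small zinc-binding fold that reads methylated lysine on histone H3. Its longer protein forms, of which Dido3 is the longest, add a domain related to the elongation factor TFIIS and a SPOC domain, a protein-binding fold that in several family members docks on phosphorylated peptides such as the tail of RNA polymerase II. Phf3 and Spocd1 carry the same pair of domains, Spen, Rbm15 and Rbm15b carry a SPOC domain behind RNA-binding motifs, and Tcea1, Tcea2 and Tcea3 encode the TFIIS proteins themselves, which help a stalled polymerase cleave its transcript and resume.

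The 4 probes of Dido1 lie on the minus strand of chromosome 2 (mm9) and read different annotated transcripts, which is why they are shown one by one. In the direction of transcription the first lies at chr2:180419747-180419806 and is annotated to 3 RefSeq transcripts, those of variants 1, 2 and 3 (here the shared probe). The second lies 3886 bases downstream of it at chr2:180415861-180415920 and lists variant 1 as its one RefSeq transcript. The third lies 14143 bases downstream at chr2:180405604-180405663 and lists variant 2, and the fourth lies 26661 bases downstream at chr2:180393086-180393145 and lists variant 3. The Tcea3 probe (chr4:135810420-135810479) and the Tcea2 probe are shown with them because their ratios are set out below. The Tcea2 probe is listed from 181419201 to 181420518 on chromosome 2, a span longer than its 60 bases, so it crosses at least 1 intron. An annotation of mm9 was not used here, so exon and UTR positions are not given. The first 30 of the 60 probe bases, 5′ to 3′ in the sense of the transcript, are printed in lower case.
Dido1 shared probe: tgcagtaatgactgcattctcaaacacgca
Dido1 variant 1 probe: aggaaaccactcctccacatgcaggtgatt
Dido1 variant 2 probe: tcaacacgatttggaaaggatttattaata
Dido1 variant 3 probe: gtaagaaggctggctaacgtatctgactgt
Tcea3 probe: actgctcagacaaggaagtggtgtccttgg
Tcea2 probe: tcatcatcaaaggatgcctcaaggactacg

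None of these probes has a near copy elsewhere on the array. The longest run of bases that a Dido1 probe shared with a probe of another gene, on either strand, was 17 for the shared probe, 13 for the variant 1 probe, 15 for the variant 2 probe and 13 for the variant 3 probe. The TFIIS genes did not share longer runs, with 14 bases for Tcea1, 15 for Tcea2 and 15 for Tcea3. The exception among the members was Spen, whose probe (chr4:141023819-141023878) overlaps 31 bases of a Zbtb17 probe on the opposite strand. That Zbtb17 probe was not well above background in any sample.

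Between 45.2% and 61.5% of probes were well above background in the mutant samples and between 47.5% and 73.4% in the wild type samples. Testing was limited to the 19141 probes that 1 genotype or both showed well above background on every array, and 9 of the 13 member probes were among them. Ratios over these probes correlated at 0.874 between replicates 1 and 3, and at 0.133 and 0.162 between replicate 2, with the dyes swapped, and replicates 1 and 3. Pluripotent cell markers had higher mean ratios in mutant samples (6 of 6 above 0, 2 past the threshold) and extraembryonic endoderm markers lower ones (10 of 10 below 0, 2 past it). Of all tested probes, 0.616% passed the threshold and 21.8% had an unadjusted p under 0.05 in limma. Nanog, at 0.26, −0.30 and 0.27, and Apoe, at −1.13, 0.10 and −0.57, changed sign between arrays. Embryonic red cell markers had a median of −2.76 (1 of 4 past the threshold, lower), neural markers −3.83, fibroblast feeder markers −1.14 and mesoderm and heart markers −0.44, the last 3 with 0 past it (3 of 5, 4 of 6 and 1 of 5 at an unadjusted p under 0.05 in limma). In each of these lists 1 gene had a mean above 0, namely Gata1 (0.72), Tubb3 (0.092), Thy1 (2.00) and Tnnt2 (0.19). Gata1 and Thy1 were higher in the mutant on every array, and Thy1 is among the 4 of 6. These lists too were drawn up with earlier results known. The summed intensity of the pluripotent markers ran from 146322 to 344224 in the mutant samples and from 25833 to 54538 in the wild type samples, that of the endoderm markers from 19079 to 149318 and from 177064 to 497906. The sum of the red cell markers ran from 986 to 2231 in the mutant and from 8561 to 10848 in the wild type, and that of the feeder markers from 6018 to 14303 and from 10450 to 20703. Neural markers summed to 1670 to 3889 and 2704 to 59934, mesoderm and heart markers to 1130 to 1699 and 1483 to 2713. Mesp1 and Pax6 were the markers too dim to be tested. The part that these marker differences play in the ratios below was not tested, and fewer cells of a type and less RNA per cell cannot be told apart in these samples.

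The Dido1 probes had ratios of opposite sign. The variant 1 probe was lower in the mutant, by 3.78-fold on average, while the 3 other probes of the gene had higher means, between 2.17-fold and 3.33-fold, and this opposition was present on each of the 3 arrays. No member probe passed the threshold against 0 in limma (adjusted p under 0.05): 0 of the 9 tested were called, where 118 of all 19141 tested probes were, which is 0.616% (0.392% higher in the mutant and 0.225% lower). At an unadjusted p under 0.05 there were 5 of the 9, namely the 4 Dido1 probes and Tcea3, against 4165 (21.8%) of all tested probes. The shared and variant 2 probes of Dido1 entered the test only through the mutant, where they are high, so these counts are descriptions. Below an adjusted p of 0.1 there were 3 of the 9, against 6.68% of all tested probes. With a dye term 6 of the 9 passed an adjusted p of 0.05 (the Dido1 probes, Tcea3 and Tcea1), as did 6 with replicate 2 left out (Rbm15 in place of Tcea1), where 5649 and 8831 of all tested probes passed.

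**Figure D1:**
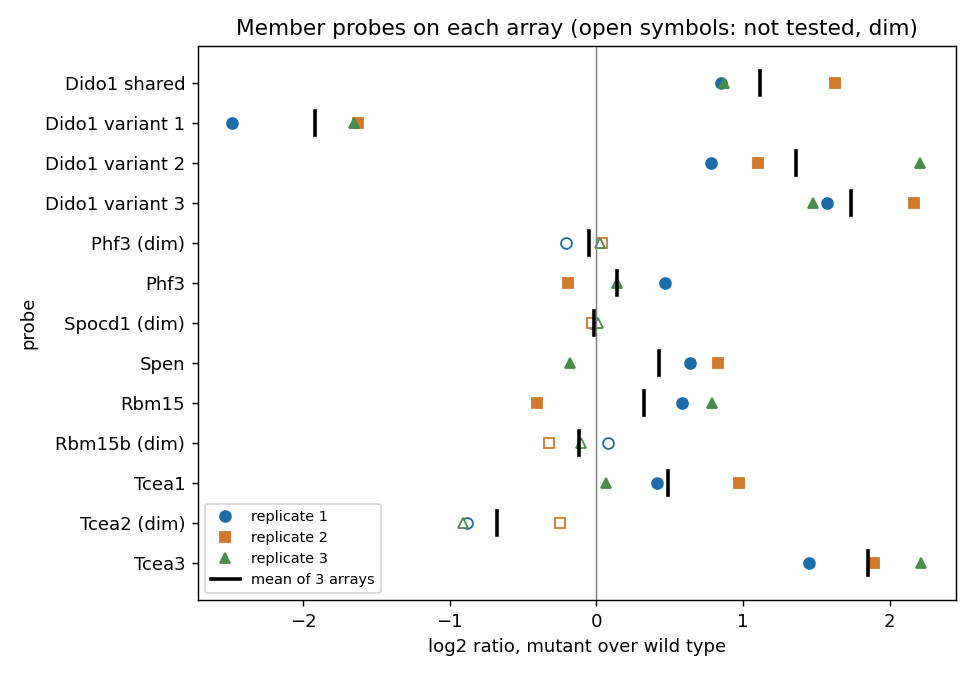
Log2 ratio of mutant over wild type (horizontal axis) for each of the 13 member probes (vertical axis), with 1 symbol per array and a bar at the mean of the 3 arrays; open symbols mark the 4 probes too dim to be tested. The variant 1 probe of Dido1 lies below 0 on each array, the other Dido1 probes and Tcea3 lie above 0 on each, and the means of the remaining members lie nearer to 0. Single values of Tcea1 (0.97), Tcea2 (−0.91) and Spen (0.83) lie as far from 0 as some of the Dido1 values.

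The variant 1 probe of Dido1 was bright in wild type samples and near the dim end in mutant samples. Its normalized log2 intensity was 9.93, 9.72 and 9.65 in wild type replicates 1, 2 and 3 and 7.45, 8.09 and 8.0 in the mutant samples. All 3 mutant samples lay below all 3 wild type samples, a separation in that direction seen for 10.3% of tested probes. The raw mean signal was 1259, 941 and 809 in the wild type and 148, 238 and 155 in the mutant, against local backgrounds between 31.5 and 39.0. The log2 ratio of mutant over wild type was −2.48, −1.63 and −1.65, with a mean of −1.92 ± 0.49 (SD, n = 3). Its limma adjusted p was 0.0593, and it remained above background in all 6 samples.

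The variant 3 probe, the most 3′ of the 4, went the other way. Its normalized log2 intensity was 11.49, 8.90 and 10.19 in wild type replicates 1, 2 and 3 and 13.06, 11.06 and 11.67 in the mutant. The arrays differed from each other by more than the genotypes did, so the groups overlap, but the mutant sample was the brighter one on every array. The ratios were 1.57, 2.16 and 1.48, with a mean of 1.74 ± 0.37 (SD, n = 3; limma adjusted p = 0.0594). With the channels taken as unpaired samples the adjusted p was 0.286, since the spread between arrays then counts as error.

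The shared probe, which lies upstream of the other 3, was dim. Its normalized log2 intensity was 7.31, 6.93 and 7.26 in the wild type and 8.16, 8.56 and 8.13 in the mutant, without overlap, a separation in that direction seen for 10.3% of tested probes. The raw signal was 177, 111 and 121 in the wild type and 261, 342 and 206 in the mutant, and 2 of the 3 wild type samples were well above background. Its ratios were 0.85, 1.63 and 0.87 (mean 1.12 ± 0.45, SD, n = 3; limma adjusted p = 0.118).

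The variant 2 probe was not well above background in any wild type sample and was above it in all 3 mutant samples. Its normalized log2 intensity was 6.90, 7.44 and 8.72 in mutant replicates 1, 2 and 3, against 6.12, 6.34 and 6.52 in the wild type. The mutant samples all lay higher, a separation in that direction seen for 10.3% of tested probes. Mutant replicate 3 lay far above the other 2, at a raw signal of 325 against 94.7 and 147. Set against a floor, the mutant mean was 2.17-fold higher in the main processing. The floor is, for the wild type of each array, the higher of the probe's own value and the lowest signal of any probe above background. It is not a detection limit for every probe. The shared probe, at 6.93 to 7.31 in the wild type, was well above background in only 2 of 3 samples, so the bound is approximate. The limma adjusted p of 0.123 belongs to the measured ratio and not to this bound. Over the alternatives the measured mean log2 ratio ran from 0.66, which is smaller than the bound, to 3.78. The wild type signal being at background, the single ratios of 0.78, 1.10 and 2.21 do not measure the size of the change. Such a bound sets the mutant channel of each array against the wild type channel and is open to dye bias, since the dyes were not swapped equally.

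**Figure D2:**
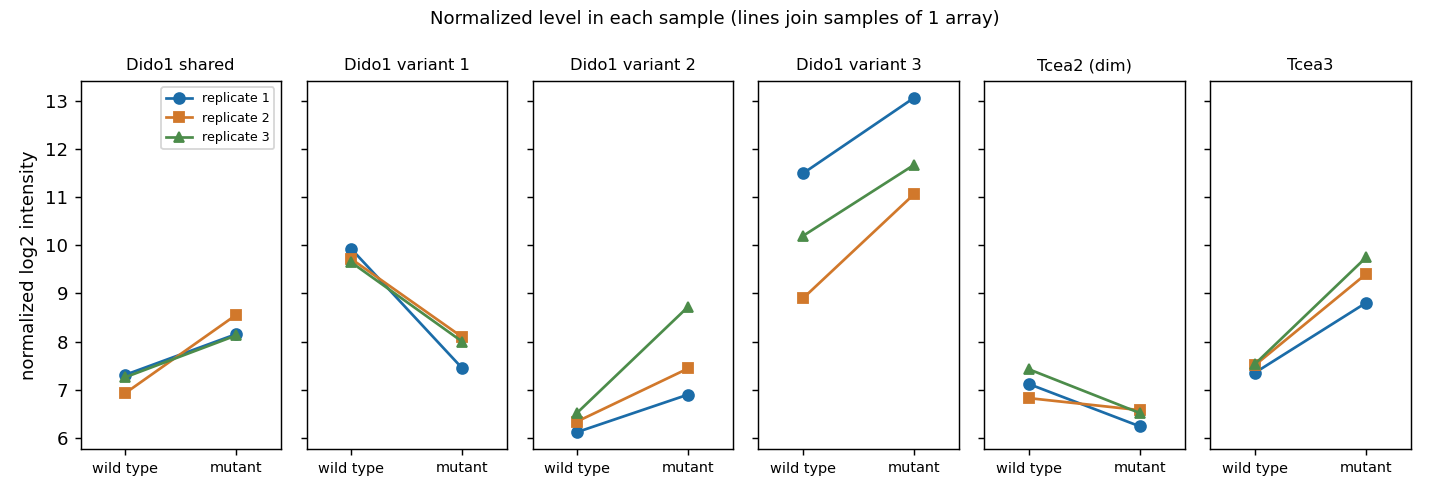
Normalized log2 intensity (vertical axis) in each wild type and mutant sample for the 4 Dido1 probes, Tcea2 and Tcea3, with lines joining the 2 samples of an array. Lines fall from wild type to mutant for the variant 1 probe and Tcea2 and rise for the other 4; levels of different probes are not comparable with each other.

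To ask whether the variant 1 probe differed from the rest of its gene, each tested probe was set against the mean of the other tested probes of its gene. The variant 1 ratio minus the mean of the other Dido1 probes was −3.55, −3.26 and −3.17 on replicates 1, 2 and 3, on the log2 scale. The mean difference was −3.32 ± 0.20 (SD, n = 3). The mean of the others includes the variant 2 probe, at background in the wild type, and the shared probe, above it in 2 of 3 wild type samples. Against the variant 3 probe alone, the other one above background in all 6 samples, the difference was −4.05, −3.79 and −3.13 (mean −3.66 ± 0.48, SD, n = 3; diffSplice adjusted p = 0.0405 with only probes above background in both genotypes). With limma's diffSplice the adjusted p was 0.00823, the smallest of 6966 probes compared, of which 11 (0.158%) passed and 6.07% had an unadjusted p under 0.05. That test takes the probes of a gene as independent and equally variable. When the difference was formed on each array first and then tested with limma, an analysis added after the data were seen, the adjusted p was 0.284, with an unadjusted p of 8.16e-05 that ranked 2 of 6966, and 0 probes (0%) passed (561, or 8.05%, at an unadjusted p under 0.05). In diffSplice the call also ended with replicate 1 left out (adjusted p = 0.435), with replicate 3 left out (0.234), and when 7 spots of extreme background were kept in the background model (difference −2.39, adjusted p = 0.465). The size of the difference was similar on the 3 arrays, and its call depends on the test.

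Neither the variant 3 nor the shared probe was called against the rest of the gene. The variant 3 probe lay 1.55 ± 0.48 above the mean of the others (SD, n = 3; diffSplice adjusted p = 0.237). It was called with only probes above background in both genotypes, where the variant 1 probe alone is left to compare (3.66, adjusted p = 0.0405). It also passed when dye was a term of the fit (1.61, adjusted p = 0.0419) and with replicate 2 left out (1.43, adjusted p = 0.0264). The shared probe lay 0.72 ± 0.47 above the others (adjusted p = 0.858) and was called in no alternative. The variant 2 probe gave an adjusted p of 0.584, and passed with Agilent's processed signals (0.0244) and with replicate 2 left out (0.0288), but with its wild type signal at background the size of its difference is not measured. Between single probes, the shared probe minus the variant 1 probe gave 3.33, 3.26 and 2.52, and the shared probe minus the variant 3 probe −0.72, −0.54 and −0.61.

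**Figure D3:**
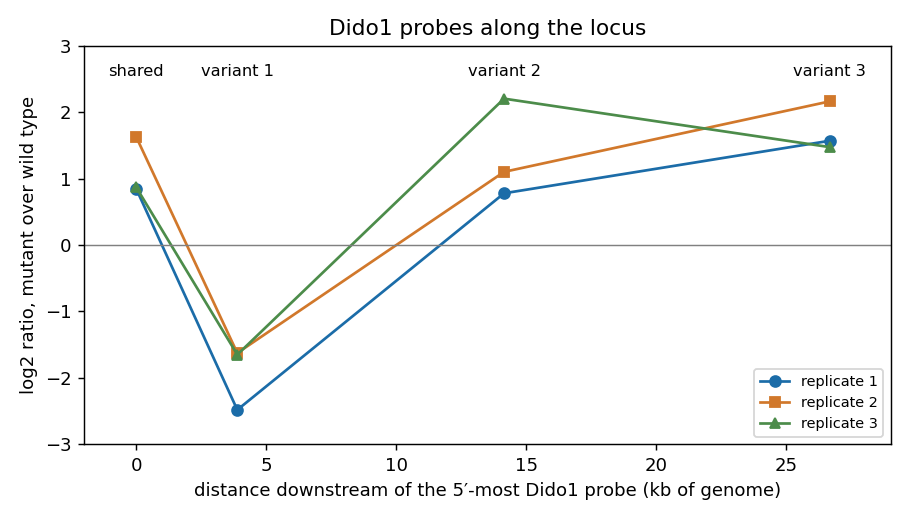
Log2 ratio of mutant over wild type (vertical axis) of the 4 Dido1 probes by their distance in kilobases of genome downstream of the 5′-most probe (horizontal axis), with 1 line per array. On each array the ratio drops at the variant 1 probe, to between −2.48 and −1.63, and lies above 0 at the probes on both sides of it; the wild type signal of the variant 2 probe was at background.

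Few genes on the array had probes that differed as widely. Between the highest and the lowest mean ratio of Dido1 lay 3.66 on the log2 scale, against a median of 0.33 over the 3176 genes with 2 or more tested probes. Only 1810037I17Rik (5.39, 3 probes) and Paip1 (3.77, 2 probes) had a wider range. Of the 74 genes with 4 or more tested probes, whose median range was 0.74, Dido1 had the widest. This is a ranking of mean ratios with no test, and a range grows with the number of probes.

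**Figure D4:**
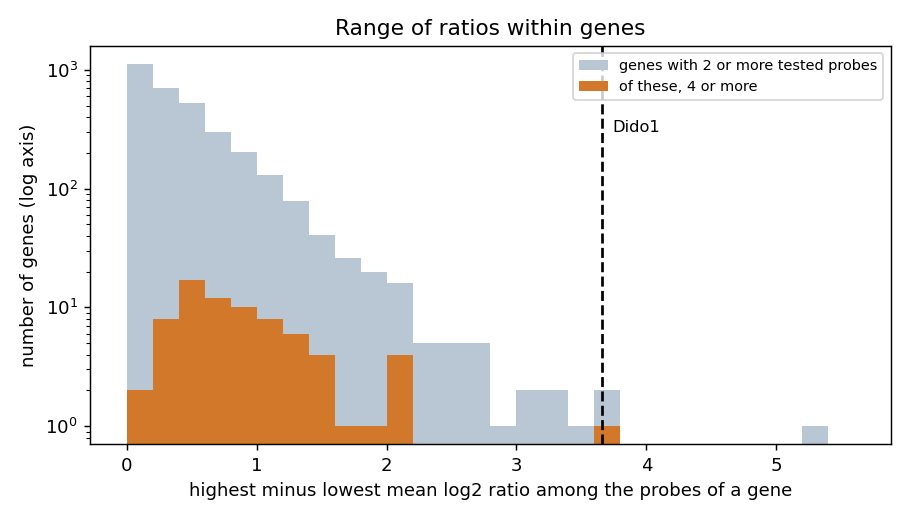
Number of genes (vertical axis, logarithmic) by the difference between the highest and the lowest mean log2 ratio among their tested probes (horizontal axis), for genes with 2 or more tested probes and for those with 4 or more. The dashed line marks Dido1 at 3.66, at the far right of both distributions.

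In the authors' deposited table the variant 1 probe also had negative values and the other Dido1 probes positive ones in all 3 columns. It lists −0.59, −1.15 and −1.70 for the variant 1 probe and 1.01, 1.66 and 1.33 for the variant 3 probe in the authors' deposited table's columns of replicates 1, 2 and 3, on a log scale whose base is not stated. With these values diffSplice gave the variant 1 probe a difference of −2.09 (adjusted p = 0.0344).

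Among the TFIIS genes, Tcea3, a tissue-restricted form that mouse embryonic stem cells express, had the largest ratio of any member outside Dido1. Its normalized log2 intensity was 7.35, 7.51 and 7.53 in the wild type and 8.80, 9.40 and 9.75 in the mutant. The mutant samples all lay above the wild type samples, a separation in that direction seen for 10.3% of tested probes. Within each genotype the samples stayed within 1 unit. The raw signal was 193, 186 and 165 in the wild type and 414, 617 and 602 in the mutant. The log2 ratio was 1.45, 1.89 and 2.21, with a mean of 1.85 ± 0.38 (SD, n = 3), 3.61-fold, which did not pass (limma adjusted p = 0.0573). Tcea3 did pass in 4 of 12 alternatives, among them Agilent's processed signals (2.50, adjusted p = 0.0476) and unpaired channels (adjusted p = 0.0467). In the remaining pair, a dye term (adjusted p = 0.0045) or the loss of replicate 2 (0.00339), error came only from the arrays with mutant RNA in Cy3. The highest adjusted p among the 12 was 0.436.

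Tcea1, the widely expressed TFIIS gene, was bright in every sample and had smaller ratios. They were 0.41, 0.97 and 0.07 (mean 0.49 ± 0.46, SD, n = 3; limma adjusted p = 0.384), and its levels overlapped between genotypes, from 12.22 to 12.91 in the mutant and from 11.49 to 12.50 in the wild type. Tcea2, a form best known from testis, was dim. It was well above background in 2 of 3 wild type samples and in no mutant sample, so it was not among the tested probes. The mutant levels of 6.24, 6.58 and 6.51 all lay below the wild type levels of 7.12, 6.83 and 7.42. Among tested probes, which do not include Tcea2, 10.3% were separated in that direction. The measured ratios were −0.88, −0.25 and −0.91, the smallest in size on the array with swapped dyes. Set against the same kind of floor, here for the mutant, the mutant mean was 1.38-fold lower. This bound is approximate and open to the same dye bias, and its wild type mean includes a sample not well above background. The limma adjusted p of the measured ratio, not of this bound, was 0.233 over all 39429 probes. In all 3 TFIIS genes the measured ratio had the same sign on every array, positive for Tcea1 and Tcea3 and negative for Tcea2, whose size is known only as that bound. The same held for 43.5% of all tested probes. Tcea1 was near 0 on replicate 3, and the signs of Tcea2 rest on a mutant signal not well above background.

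Of the genes that carry both the TFIIS-related and the SPOC domain, only Phf3 could be measured beside Dido1. Phf3, which binds the phosphorylated tail of RNA polymerase II, had a bright probe (chr1:30860016-30860075) with ratios of 0.47, −0.19 and 0.14. Their mean of 0.14 ± 0.33 (SD, n = 3; limma adjusted p = 0.784) became −0.16 with median centring and −0.024 without replicate 1, and levels ran from 12.15 to 13.25 in the mutant and from 12.34 to 12.78 in the wild type. A second Phf3 probe (chr1:30870670-30870729), annotated to another transcript, was not well above background in any sample. Spocd1, which acts in the fetal male germ line where small RNAs direct DNA methylation, was likewise not well above background in any sample, with raw signals between 41.7 and 61 against local backgrounds of 28.0 to 37.0. Neither probe gives a level above background to compare.

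The SPOC genes of the RNA-binding branch had ratios that were small or changed sign between arrays. Spen, a corepressor in Notch signalling that also acts in X chromosome silencing, had ratios of 0.64, 0.83 and −0.18 (mean 0.43 ± 0.54, SD, n = 3; limma adjusted p = 0.461). Rbm15, which guides the machinery that methylates adenosine in RNA, had 0.59, −0.41 and 0.79 (mean 0.32 ± 0.64, SD, n = 3; limma adjusted p = 0.603), and its mean became −0.041 with median centring. The negative value of Rbm15 came from replicate 2, the array with swapped dyes. Without that array the mean was 0.69 (limma adjusted p = 0.0301), but dye and genotype then coincide and 8831 of all 19141 tested probes passed. With a dye term the mean was 0.14. Rbm15b, a related adaptor of the same machinery, was above background in 2 of 3 samples of each genotype and was not tested, with ratios of 0.08, −0.33 and −0.10. The levels of Spen, Rbm15 and Rbm15b overlapped between the genotypes.

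Ordered by mean ratio, the tested probes other than that of Dido1 variant 2, which has only a bound, ran from the Dido1 variant 1 probe (−1.92) through Phf3 (0.14), Rbm15 (0.32), Spen (0.43), Tcea1 (0.49), the Dido1 shared probe (1.12) and the Dido1 variant 3 probe (1.74) to Tcea3 (1.85). Neighbours from Phf3 to Tcea1 differed by less than the larger of their SDs, as did the variant 3 probe and Tcea3. In 6 of the 9 tested the ratio had the same sign on each array, against 43.5% of all tested probes. In 4 of the 9 the levels did not overlap, against 20.7%. The variant 2 and shared probes of Dido1 are among both the 6 and the 4, and were tested only because they are bright in the mutant. All 4 Dido1 probes are among the 6. Nothing is read from either count.

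The rest of the elongation machinery gave no called gene. None of the 12 RNA polymerase II subunit genes passed, higher or lower (0 at an unadjusted p under 0.05 in limma), with a median ratio of 0.13 against 0.018 over all tested probes. They ran from −0.24 for Polr2d to 0.52 for Polr2h. Of 33 elongation factor genes, such as those of the Paf1 complex and the pausing factors, 0 were higher and 0 lower past the threshold (2 at an unadjusted p under 0.05), where 0.616% of all tested probes passed and 21.8% had an unadjusted p under 0.05, with a median of −0.024. The highest, Aff4 of the super elongation complex, had ratios of 3.45, −2.87 and 2.74, negative only on the array with swapped dyes, and the lowest, Eloa, which itself carries a TFIIS-like N-terminal domain, a mean of −0.44 ± 0.25 (SD, n = 3).

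Genes named for TFIIS without its catalytic domain were 7 tested of 9 on the array, all 7 of the Tceal group. None passed in either direction in limma (0, against 0.616% of all tested probes), and 6 had an unadjusted p under 0.05, against 21.8%. Sequence shared among the probes of these genes was not examined, so the 6 may not be separate readings. Their median was −0.80 against 0.018 over all tested probes, and 1 of 7 lay above 0. Tceal5 was lowest at −1.26 ± 1.19 (SD, n = 3), with ratios of −1.90, 0.11 and −1.99, positive only on the array with swapped dyes. Tceal7 was highest at 0.79 ± 0.15 (SD, n = 3). It lay above 0 on every array and is 1 of the 6.

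Partners of the other members were looked at in the same way, where 0.616% of all tested probes passed and 21.8% had an unadjusted p under 0.05. Among 12 genes that write, read or erase methyladenosine in RNA, with which Rbm15 and Rbm15b work, 0 passed (0 at an unadjusted p under 0.05 in limma), with a median of 0.023 and a range from −0.14 for Ythdf3 to 0.40 for Alkbh5. Among 7 partners of Spen 0 passed (2 at an unadjusted p under 0.05), with a median of −0.055, and they ran from Gps2, a corepressor subunit, at −0.74 ± 0.13 to Rbpj, the DNA-binding factor of Notch signalling, at 1.10 ± 0.18 (SD, n = 3; limma adjusted p = 0.0944 for Rbpj). Of 10 PHD-finger readers of histone H3 methylation 0 passed (2 at an unadjusted p under 0.05), with a median of 0.077, from −1.26 for Ing4 to 0.50 for Ing5.

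Of 7 genes that work with Spocd1 in small-RNA-directed DNA methylation, 5 were bright enough to be tested. Of these 0 passed in limma, against 0.616% of all tested probes, and 4 had an unadjusted p under 0.05, against 21.8%. The ratio lay above 0 in 4 of the 5, with a median of 2.07. The highest was Mael, a piRNA pathway gene, with ratios of 3.75, 0.95 and 4.53 (adjusted p = 0.104), and the lowest Dnmt3a, a DNA methyltransferase, at −0.13 ± 0.41 (SD, n = 3).

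The probes of other genes whose 3 ratios lay closest to those of a Dido1 probe, by Euclidean distance over the 3 arrays, were picked as a description. Nearest to the variant 1 probe were P4ha1 (distance 0.24), Hacd4 (0.26) and Plat (0.28). The variant 3 probe lay nearest to TC1685781 (0.13), Actr3b (0.15) and 1700019A02Rik (0.16), the shared probe to Fig4 (0.098), Laptm5 (0.12) and Zmynd12 (0.13), and the variant 2 probe to LOC100505237 (0.10), Ldoc1 (0.14) and Rhox4a (0.14), where its own ratios rest on a wild type signal at background.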

How the data were processed

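The scanner files hold red and green spot intensity and flags for saturation, outliers and background, written by Agilent Feature Extraction 10.7.3.1 per the file headers, with probe positions on mm9. The authors' deposited table holds ratios taken here as log2, although their log base and construction are not given in the sources used here beyond limma, named in the submitters' processing notes. Its columns of replicates 1 and 3 each correlated more with the other replicate's scanner ratios (0.775 and 0.815) than with their own (0.620 and 0.715), so it served only as an alternative. The comparison with the scanner files shows mutant over wild type in every column, with column medians of −0.04, 0.01 and −0.01.

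Mean signals of 43020 non-control spots were corrected against the median local background with normexp (offset 50). On replicate 3, 7 spots with background over 10 times the median were given the median for the background model and then left out, as were spots flagged as outliers (317, 364 and 438 on the 3 arrays). Loess was run within arrays with weight 0 for 1377 control spots, spots of a probe were averaged, and replicate 2 was sign-turned. Sample levels came from the same values after Aquantile. limma 3.58.1 in R 4.3.3 tested the 3 ratios against 0 with Benjamini-Hochberg adjustment over 19141 probes (2 residual and 3.13 prior degrees of freedom). Each array is a block of 1 mutant and 1 wild type sample. All arrays lay on 1 slide. Probes of a gene were compared with diffSplice. The scripts were tested on simulated data. Number of arrays limits the precision.

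Every member probe is named. Of the pathway lists the genes past the threshold and the highest and lowest ratio are named, and likeness takes the 3 nearest probes. The members and lists were chosen with earlier results of these data known. Of the 13 member probes, 11 matched a RefSeq accession (GRCm38.p6 table), all 11 with the same symbol. Probe sequences are those in the scanner files.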

Additional observations from a re-analysis of the deposited data

How the results depend on the processing

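The sign of the mean ratio held for every tested member under all alternatives run except Phf3 (−0.16 with median centring, −0.024 to 0.31 when 1 replicate was left out, lowest without replicate 1) and Rbm15 (−0.041 with median centring). Median centring moved the median ratio of all tested probes from 0.018 to −0.23, and both genes lay above that shift. Counts of calls were less stable. Over all tested probes the 118 calls became 0 with the extreme background spots kept (1956 at an unadjusted p under 0.05), 488 with Agilent's processed signals, 0 with no filter on dim probes (6329 unadjusted), 4 with both genotypes required above background, 5649 with a dye term, 0 with the authors' deposited table (3638 unadjusted), and from 5 to 8831 when 1 replicate was left out. The share of higher calls was 63.6%, and 50% with median centring, 49.9% with a dye term, 53.4% without replicate 2 and 75% with both genotypes above background. Of the members, 0 became 3 with processed signals, 6 with a dye term and 0 to 6 when 1 replicate was left out. The pathway lists went from 0 to 16 with a dye term, and 0 to 30 when 1 replicate was left out.

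With no replicate block, so with the pairing of samples on an array ignored, 285 probes were called in all, 2 members (the Dido1 variant 1 probe, adjusted p = 0.0387, and Tcea3, adjusted p = 0.0467) and 1 pathway gene. The difference of the variant 1 probe from the other Dido1 probes was then −3.32 (diffSplice adjusted p = 0.0260). That difference was −2.39 (adjusted p = 0.465) with the extreme background spots kept, −3.32 (adjusted p = 0.284) with array-wise differences, an alternative chosen after seeing the data, and −3.40 to −3.21 when 1 replicate was left out, where the call was lost without replicate 1 or 3. Over 13 alternatives it ran from −5.01 to −2.09 and 9 kept the call.

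With a dye term or without replicate 2, the error rests on replicates 1 and 3, and in the latter case dye and genotype coincide. The ratio of the shared probe ran from 0.65 (authors' deposited table) to 1.79 (processed signals), and that of variant 2 from 0.66 (extreme background spots kept) to 3.78 (processed signals). The adjusted p of the Dido1 probes against 0 ran from 0.00272 to 0.428 for variant 1, 0.00259 to 0.405 for variant 3, 0.00563 to 0.586 for the shared probe and 0.0193 to 0.752 for variant 2. Signal near background limits the variant 2, Tcea2 and Rbm15b probes, and leaves no level to compare for Spocd1 and 1 Phf3 probe.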
